A study of Microtus ochrogaster with 2 samples.

Results

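The Znf and Zfp genes of the prairie vole (Microtus ochrogaster) are named for zinc fingers, small protein loops folded around a zinc ion. They were taken as the protein-coding symbols of the RefSeq gene table of assembly MicOch1.0 that start with Znf or Zfp and go on with a digit, 195 of 20077 genes. Of these, 133 (121 Znf and 12 Zfp) had a position that could be matched to the H3K4me1 peaks, among 13975 such genes in all. The others were 58 genes on unplaced sequences, 3 on chromosome 14 and 1 on chromosome 6 below 20 Mb, and they were not analysed here. A locus is the gene body with 5 kb on each side, and a peak counted when it overlapped the locus by at least 1 bp.

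The tissue was retrosplenial cortex, which lies along the midline behind the cingulate cortex and serves spatial memory, from males of 30 to 40 days. The ChIP group was 1 library made with an antibody against H3K4me1, and the input group was 1 library of the same tissue with no antibody. The series names 8 males; their split between the libraries and any pooling are not given in the sources used here. No agent or genotype is given for either library. The caller kept 1 fragment per position, which left 37430265 ChIP fragments and 47554684 input fragments.

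The authors called 36238 peaks, of which 27022 (74.6%) lay on the 28 sequences used. Since each kind had 1 library, nothing here has a replicate check and no test between conditions was possible. The 95% intervals below are Wilson intervals that cover counting error over genes only, and genes side by side are not independent. In a tissue of many cell types, a mark in few cells and a weak mark in many cannot be told apart. Of 5 placed genes expressed in cortical excitatory neurons, 4 carried a peak, against 46.0% of all placed protein-coding genes. Camk2a had 7, Mef2c 32, and Nrgn and Tbr1 1 each. Locus length was not allowed for, and no cell type is read from these genes. Neurod6 had none.

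Most Znf and Zfp proteins are C2H2 zinc finger proteins, in which arrays of fingers read DNA sequence. Many mammalian members also carry a KRAB domain, which recruits the corepressor Trim28 and the histone methyltransferase Setdb1 to silence chromatin, often at transposable elements. Such genes multiplied by tandem duplication and commonly stand in clusters. H3K4me1, histone H3 with a single methyl group on lysine 4, marks enhancers and the flanks of promoters in use. The symbol takes in other folds as well, such as the CCCH fingers of Zfp36l1 and Zfp36l2, which bind AU-rich messenger RNAs and promote their decay.

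At least 1 peak overlapped 80 of the 133 loci, or 60.2% (95% interval 51.7 to 68.1%). Over all 13975 placed protein-coding genes the share was 46.0%. Genes with a named symbol, without the LOC entries, stood at 52.8%. The median Znf or Zfp locus had 0.963% of its length under peaks and the mean was 1.996%, against a median of 0 and a mean of 1.41% over all genes. Peaks with their midpoint inside the gene body were found at 67 members (50.4%), against 37.8% of all genes. At least 2 peaks lay in 47 loci (35.3%), against 25.5% of all genes, and at least 5 in 13 loci (9.77%), against 8.31%. These are descriptions of 1 peak list and no test stands behind them.

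Longer loci carried peaks more often, among members as among all genes. The 80 members with a peak had a median locus of 36.4 kb and the 53 without one a median of 20.98 kb. In 10 classes of equal gene number by locus length, 35.3% of the 17 members between 14.3 and 17.6 kb carried a peak, against 30.8% of all genes there. Between 36.2 and 49.3 kb it was 71.4% of 14 members against 52.5%, and above 125 kb it was 12 of 12 members against 84.3%. When all genes were weighted to the members' locus lengths, their share was 47.998%, so the members' 60.2% lay 12.2 percentage points above it. With named genes only, the weighted share was 50.7% and the difference 9.49 points. In 9 of the 10 length classes the members' share was above that of all genes, the exception being the shortest class, with 2 members. In every class the interval of the members took in the share of all genes.

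**Figure D1:**
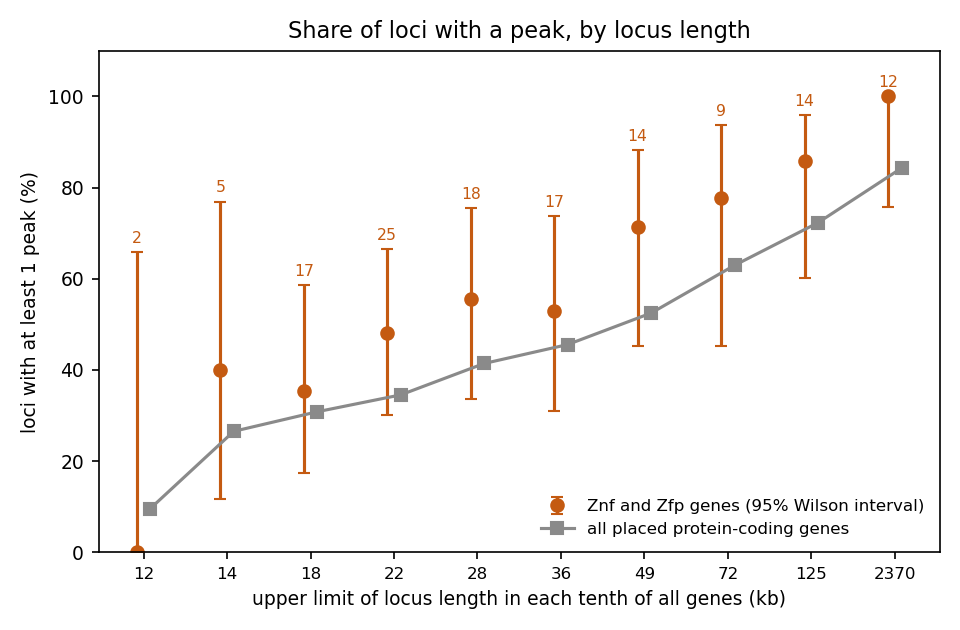
Percent of loci with at least 1 peak (vertical axis) in 10 length classes of equal gene number over all placed protein-coding genes (horizontal axis, upper limit of locus length in kb). Orange points are Znf and Zfp genes with 95% Wilson intervals and their number above, and grey squares are all genes; both rise with length, with 12 of 12 members and 84.3% of all genes in the longest class.

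Peaks were unevenly spread over the members. Of the 133 members, 53 had no peak, 33 had 1, 18 had 2 and 29 had more. All genes were uneven too, with a peak in 46.0% of loci, exactly 1 in 2871 of the 13975, at least 5 in 8.31% and up to 85 in a locus. The 2 members with the most peaks held 16.5% of all 230 pairs of gene and peak, and the 10 with the most held 39.6%. Only 2 peaks lay in more than 1 member locus, so the pairs stood for 228 distinct peaks.

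Znf532, a partner of the chromatin reader Zmynd8 in human cells, had the most peaks and the highest coverage of all members. Its locus of 104 kb on chromosome 18 held 21 peaks over 14.7% of its length, 19 of them with their midpoint in the gene body. The peaks ran from 51001896 to 51100193, with a median gap of 2.82 kb between them. Fold enrichment is the authors' ratio, for each peak, of ChIP fragments at the summit to a local background that the caller took from the input. At Znf532 its median was 2.94 (2.298 to 4.36). The strongest was at 51082859 to 51084255 with 36 ChIP fragments at its summit and 4.36-fold enrichment, and the widest, at 51036560 to 51038649, spanned 2090 bp. Peaks stood along the whole gene with no gap over 16.3 kb.

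Its relatives in sequence carried fewer. Znf592, the next of this trio of Zmynd8 partners, had 2 peaks over 2.66% of its locus on chromosome 22, the stronger at 4.01-fold with 28 fragments. Znf687, the last of them, had none in a gene of 8.74 kb, while Znf592 spans 39.3 kb and Znf532 94.5 kb. Zmynd8 itself, no member, had 20 peaks over 23.2% of its locus. Gene length differed along with peak number within the trio, and its part in the difference was not tested.

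Znf608, a large nuclear protein gene with a relative in the fly gene scribbler, followed with 17 peaks over 8.83% of a 121 kb locus on chromosome 18. All 17 midpoints lay in the gene body, between 41459497 and 41547338. Its strongest peak, at 41516425 to 41518626, had 29 fragments and 3.97-fold enrichment and was also the widest in any member locus, at 2202 bp. It closed a run of 5 peaks between 41511373 and 41518626. The paralogue Znf609, which acts in Nipbl-dependent transcription in mouse cortical progenitors, had 6 peaks over 1.95% of a longer locus of 165.3 kb. Znf608 thus had 1.40 peaks per 10 kb of locus and Znf609 had 0.363.

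**Figure D2:**
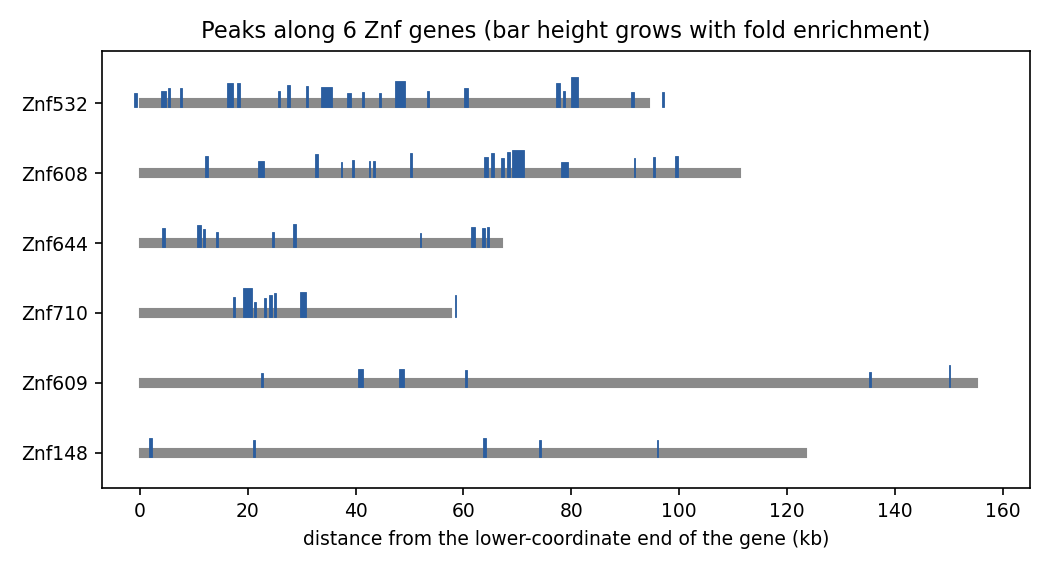
Peaks (blue) along the bodies (grey bars) of 6 Znf genes, by distance in kb from the lower-coordinate end of each gene, with bar height growing with the authors' fold enrichment. Znf532 with 21 peaks and Znf608 with 17 are lined with peaks, 7 of the 8 peaks of Znf710 bunch in part of the gene with the eighth past its end, and the 6 of Znf609 and 5 of Znf148 lie far apart.

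The next in number was Znf644, a partner of the H3K9 methyltransferase complex of G9a and GLP, with 10 peaks over 6.13% of its locus on linkage group 1. All of them had their midpoints in the gene, and their median enrichment was 2.95-fold. Znf710 on chromosome 22 had 8 peaks over 7.94%, of which 7 lay in the gene body between 14649497 and 14663064. Its strongest, at 14651474 to 14653043, reached 4.29-fold with 30 fragments. Znf281, which acts in pluripotent cells and in the epithelial to mesenchymal transition, was far shorter. Its gene of 7.53 kb on chromosome 6 held 4 peak midpoints, the fifth peak reached into the outer flank, and together they covered 12.2% of the locus.

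The other members with at least 5 peaks were Znf385d, Znf148, Znf277, Znf365, Znf385a, Znf385b and Znf407. Znf365, whose product binds Disc1 and shapes oligodendrocyte and neuronal processes, had 5 peaks within 10.4 kb on linkage group 2, over 6.51% of its locus. The Znf385 genes, of which Znf385a encodes a zinc finger protein that binds RNA, differed in length far more than in peak number. Znf385a, with a gene of 27.4 kb, had 5 peaks over 6.003% of its locus. Znf385b, with 286 kb, also had 5, over 0.703%, and Znf385d, with 889 kb, had 9 over 0.374%, a median of 90.4 kb apart.

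Genes longer than 100 kb, 14 of the members, all carried at least 1 peak, against 82.9% of all 1674 genes of that length. Their median coverage was 0.833%, against 0.910% in all such genes, and the median number of peaks was 4 in both. Znf521, a regulator of neural and blood progenitors, stood lowest with 1 peak in 289 kb of gene. That peak had 21 fragments and 3.04-fold enrichment. Znf804b had 4 peaks in 553 kb and Znf804a, a gene associated with schizophrenia in human studies, 2 in 191 kb.

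**Figure D3:**
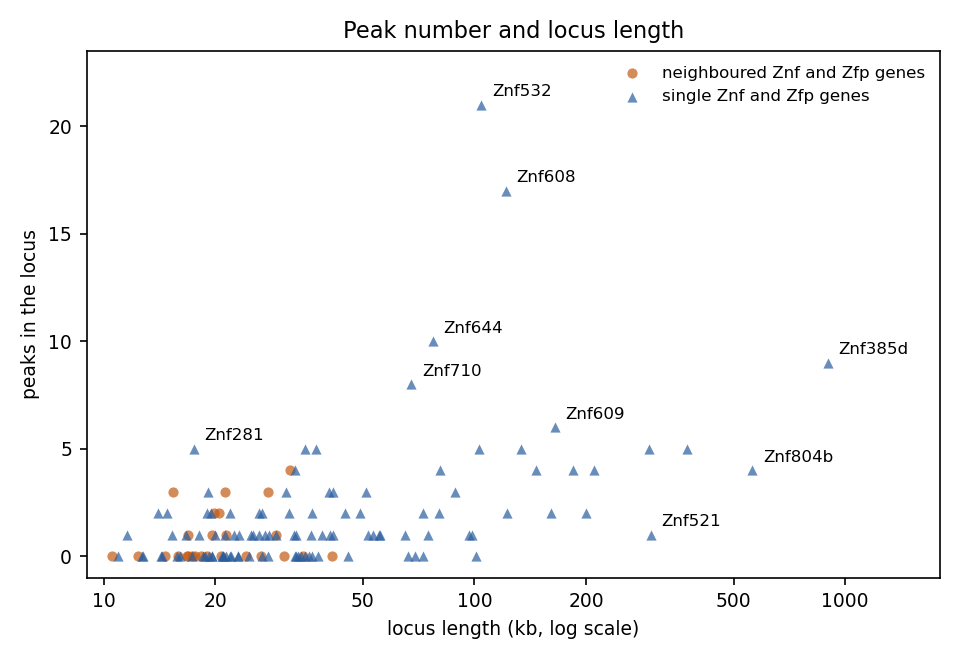
Number of peaks (vertical axis) against locus length in kb (horizontal axis, log scale) for each Znf and Zfp gene, neighboured genes as orange circles and single genes as blue triangles. Znf532 with 21 peaks and Znf608 with 17 stand above all others of their length, and Znf521 with 1 peak and Znf804b with 4 are among the sparsest long loci.

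Other loci of high coverage had few peaks. Znf740 on chromosome 15 had 3 peaks, all within 5 kb, over 10.1%, 1 of which had its midpoint in the neighbouring gene Csad. Znf436 on chromosome 10 had 4 peaks over 6.92%. Among them was the strongest peak of any member locus, at 48519074 to 48520018, with 44 fragments and 5.61-fold enrichment, whose midpoint lay in the body of the neighbouring gene Hnrnpr. A further peak of Znf436, at 48531193 to 48531726, had 169 fragments but only 1.79-fold enrichment, over a local background more than 5 times the lowest. The only peak of Znf641, picked out after its values were seen, was of the same kind, with 241 fragments at 1.35-fold.

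A peak of at least 4-fold was found in 9 member loci (6.77%), against 4.39% of all genes and 5.15% of named genes. Beside Znf436, Znf532, Znf710 and Znf592 these were Znf451, a SUMO ligase gene (4.42-fold, 37 fragments), and Znf346, which encodes a protein binding double-stranded RNA (4.38-fold, 33 fragments). Znf251 reached 4.29-fold, Zfp36l2 4.14-fold and Znf277 4.05-fold. Across all 228 distinct peaks of member loci the median enrichment was 2.86-fold (quartiles 2.59 and 3.18), and over all placed peaks it was 2.85-fold (2.59 and 3.18). Median width was 445 bp in member loci and 432 bp over all placed peaks. The member peaks were thus close to the whole list in strength and width.

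Members with a single peak, 33 of the 133, had between 0.0883 and 6.46% of their locus covered, with a median of 1.65%. Over all genes 2871 of 13975 loci had a single peak, and among named genes 2619 of 11435. Their peaks had a median enrichment of 2.90-fold. The highest coverage among them was that of Znf574, and the strongest of these peaks was that of Znf346. Further members with 1 to 4 peaks follow, picked after their values were seen, with roles, where given, stated from human or mouse studies. Zfp62 on chromosome 7 had 2 peaks over 5.90% of its locus, and Znf622, a factor of ribosome maturation, had 2 over 4.25%. Znf207, known as BuGZ, which acts at kinetochores and in splicing, had 1 peak over 3.42% at 2.59-fold. Znf410, an activator of the NuRD gene Chd4, had 1 over 2.20% at 3.27-fold. Znf326, a subunit of a complex that links transcription and splicing, had 1 over 0.529% at 3.68-fold, and Znf827, which brings NuRD to telomeres, had 4 over 1.21%.

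Most member peaks lay inside the genes. Of the 228, 198 (86.8%, interval 81.8 to 90.6%) had their midpoint in a member's body, which made up 83.6% of the locus length. With the body of any gene counted, 210 of the 228 (92.1%, interval 87.9 to 94.9%) lay in a body, and gene bodies made up 86.6% of the member loci. By the same count over the loci of all genes, 93.6% of peaks lay in a body and bodies made up 87.3% of the length. Bodies of any gene held 0.309 peaks per 10 kb in member loci, against 0.280 over all loci, and the stretches outside all bodies held 0.171 in member loci, from 18 peaks, against 0.132. Of the body peaks, 5 had a midpoint within 1 kb of a gene end and 35 (17.7%) at 1 to 2.5 kb, while 113 (57.1%) lay more than 10 kb inside. No like count over all genes is given here, and short genes cannot hold a peak so far inside. Of the 30 peaks in flanks alone, 12 had their midpoint in the body of another gene. Start and end of transcription were not told apart, because the gene table gives no strand.

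At 13 members every peak lay in the flanks, and those described here were picked after their values were seen. Of the 80 members with a peak, 67 had a midpoint in the body, and over all genes it was 5277 of the 6435 with a peak, a like share. Zfp36l2, with a gene of 4.06 kb on linkage group 3, had its 2 peaks at 32097651 to 32097922 (4.14-fold, 29 fragments) and 32100271 to 32100613 (2.82-fold, 21 fragments), both on the same side. Its relative Zfp36l1, of similar length, had none. Znf143, an activator that binds promoters and loop anchors, had 1 flank peak at 2.73-fold, and Znf395 had 1 at 2.64-fold. At Znf541, a gene of male meiosis in mouse, the peak had its midpoint in the neighbouring Napa.

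A list of members with known roles in brain, imprinting or disease held 19 genes of the table, of which 15 were placed. Of these, 13 carried a peak, and their median coverage was 1.52%. All genes weighted to these locus lengths stood at 65.7%, and 8 of the 15 listed genes were longer than 100 kb. Znf292 and Znf462, whose human forms are mutated in neurodevelopmental disorders, had 3 peaks over 1.52% and 4 over 1.29% of their loci. Znf335, part of an H3K4 methyltransferase complex and needed for cortical growth in mouse, had 1 over 1.53%. Znf407 had 5 over 0.568%, Znf148 5 over 1.58% and Zfp91, a ubiquitin ligase gene, 3 over 3.72%. The 2 without a peak were Znf142 and Zfp57, the KRAB protein that keeps DNA methylation at imprinted loci. The 4 not placed were Znf536, Znf423, Znf711 and Zfp36.

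Among the 53 members with no peak were several whose best-known roles lie in other tissues or stages, picked out after their values were seen. Znf750 acts in epidermal differentiation, Znf683 in tissue-resident T cells, Znf366 in dendritic cells and Zfp42, known as Rex1, in pluripotent cells. In the length classes of these loci, 26.5, 30.8, 72.3 and 9.59% of all genes carried a peak, in the same order. Znf281, named above for its role in pluripotent cells, went the other way with 5 peaks. The longest locus without a peak was that of Znf618, at 101.01 kb. Others without a peak have roles in most cells, among them Znf598, a ligase that senses collided ribosomes. A locus with no peak says only that none passed the caller's limit at this depth. Both members on the X, Znf280c and Znf449, had none, where 6.69% of all genes on the X carried a peak.

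The comparison by position set 26 members that had another member within 100 kb, called neighboured, against 107 single ones. The gap was measured between gene bodies. By the gap to the nearest member, Znf200 and Znf263 were just inside the limit, 78.1 kb apart, and Znf526 and Znf574 just outside it, 135 kb apart. Some adjacent members within the limit stood farther apart than Znf200 and Znf263, each having a nearer member on its other side. Genes with LOC symbols were not counted as neighbours, because the table gives no names for them, so some single members may stand beside an unnamed zinc finger gene.

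Of the neighboured members 10 of 26 carried a peak, 38.5% (22.4 to 57.5%), and of the single members 70 of 107, 65.4% (56.02 to 73.8%). The share in neighboured minus single members was -26.96 percentage points (Newcombe interval -45.03 to -5.76, counting error only). Median coverage was 0 in neighboured and 1.17% in single members, while the means were 1.986% and 1.999%. Distinct peaks numbered 0.367 per 10 kb of neighboured loci and 0.285 per 10 kb of single loci. The share with a peak and the median were thus lower in neighboured members, the mean was nearly the same and the density was higher. The order of the densities turned round with 20 kb flanks (neighboured minus single -0.058 peaks per 10 kb), with the stronger 50% of peaks by q (-0.012) and with neighbours within 250 kb (-0.023). The difference in share became -15.2 points with 20 kb flanks (-35.4 to 3.87) and -11.6 points with the 25% of peaks of highest fold (-25.8 to 8.66).

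**Figure D4:**
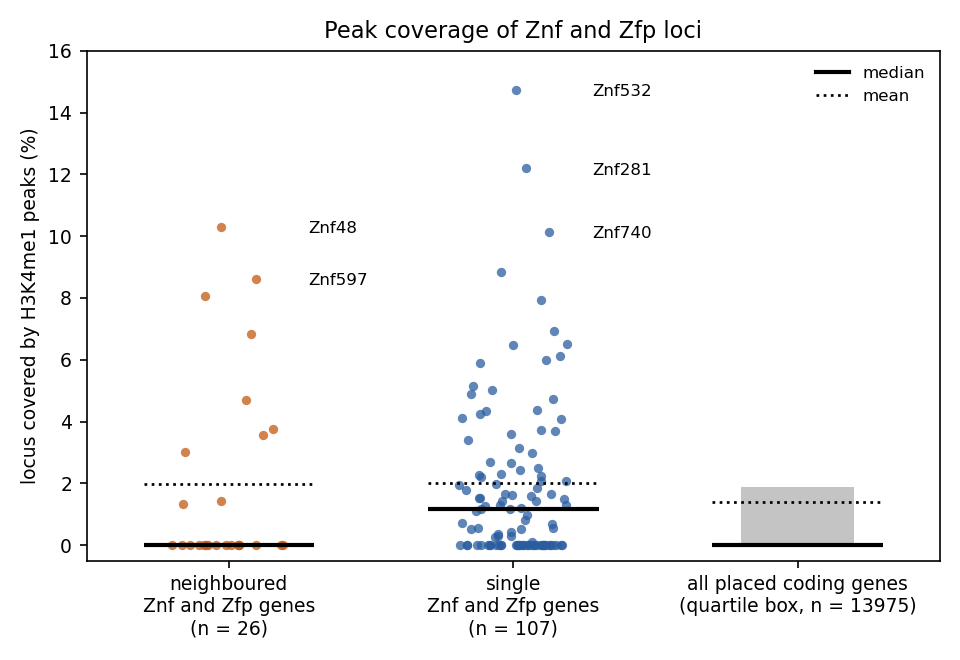
Percent of each locus covered by H3K4me1 peaks for 26 neighboured and 107 single Znf and Zfp genes (points), with the quartile box of all 13975 placed protein-coding genes. Solid lines are medians (0, 1.17% and 0) and dotted lines means (1.986%, 1.999% and 1.41%). Znf532 at 14.7% is the highest single and Znf48 at 10.3% the highest neighboured gene.

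Neighboured loci were also shorter, with a median of 19.7 kb against 33.0 kb, and none was longer than 41.4 kb. Within tertiles of the members' locus length the shares lay closer together. In the shortest (up to 21.2 kb) 6 of 17 neighboured and 11 of 27 single members carried a peak, 35.3% against 40.7%, a difference of -5.45 points (-31.3 to 23.03). In the middle (up to 37.4 kb) it was 4 of 8 against 21 of 36, a difference of -8.33 points (-40.3 to 24.4). Density in the shortest tertile was 0.365 peaks per 10 kb in neighboured and 0.458 in single members, and in the middle 0.425 and 0.375, so the higher density of neighboured members over all lengths was not seen in the shortest, which held 17 of the 26. The longest tertile held 1 neighboured member, without a peak, and 44 single ones, of which 38 carried one. All genes weighted to the neighboured members' lengths stood at 35.3%, and weighted to the single members' lengths at 51.1%. With named genes only, these weighted shares were 38.8% and 53.5%, the first close to the share of the neighboured members. Neighboured members had a median of 8 other coding genes within 100 kb and single members 4.

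The neighboured members fell into 9 groups, of which 6 held at least 1 member with a peak. The largest, on linkage group 4, held Znf446, Znf324, Znf8, Znf274 and Znf329 within 175 kb, and none of the 5 carried a peak. Znf274 is a KRAB protein that in human cells brings Setdb1 to the ends of other zinc finger genes. The only peak in this span lay outside all 5 loci. Without this group the share in neighboured minus single members was -17.8 points (-38.8 to 4.31). The pairs Znf445 with Znf35 on chromosome 5, and Znf623 with Znf707 on chromosome 15, carried no peak either. Znf445 acts beside Zfp57 at imprinted loci in mouse and human cells.

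The other large groups were mixed. On chromosome 7, Znf597, imprinted in human tissues, had 3 peaks over 8.62% of its locus. The strongest, at 4816911 to 4818378, had 25 fragments and 3.53-fold enrichment, and the other 2 had their midpoints in the neighbouring gene Naa60. In the same group Znf263 had 1 peak at 3.18-fold, while Znf174, whose body overlaps that of Znf597, and Znf200 had none. On chromosome 8, Znf48 had 3 peaks over 10.3% of its locus, at 2.82-fold, 3.46-fold and 2.86-fold, and the adjacent Znf771 had 2 over 3.75%. Of the 2 at Znf771, 1 had its midpoint in the neighbouring gene Dctpp1. Znf768 and Znf689, further along the same group, had none. In the trio on chromosome 7, Znf286a and Znf287 had 1 peak each, at 2.90-fold and 3.32-fold, and Znf624 between them had none.

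Pairs of members within 10 kb of each other differed. Znf623 and Znf707 had no peak, nor had Znf446 and Znf324, while Znf48 and Znf771 had separate peaks. Znf668, linked to DNA repair in human cells, had 3 peaks over 6.84% of its locus on chromosome 8. The 2 peaks counted for the adjacent Znf646 were the same as 2 of these, with their midpoints in the body of Znf668. Znf672 on chromosome 7 had 4 peaks over 8.06%, and Znf692, 1.40 kb away, had none. The strongest and widest of the 4, at 40431425 to 40432654, had its midpoint in the neighbouring gene Sh3bp5l. Counting each peak for its nearest member alone gave 9 of 26 neighboured members with a peak.

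**Figure D5:**
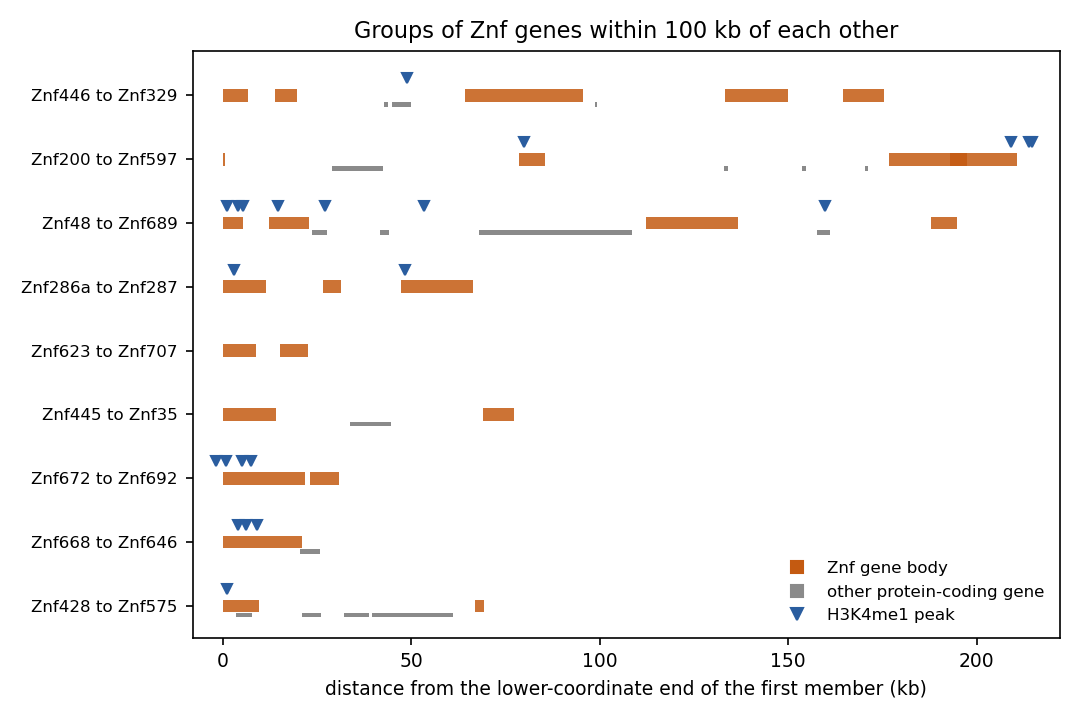
The 9 groups of Znf genes within 100 kb of each other, drawn by distance in kb from the lower-coordinate end of the first member, with Znf bodies in orange, other protein-coding genes in grey and H3K4me1 peaks as blue triangles. The group of 5 from Znf446 to Znf329 has 1 peak, outside all member loci, and 3 of the 9 groups have no member with a peak.

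Other zinc finger families were placed beside the members by counts only. Of 34 Zbtb symbols, 20 (58.8%) carried a peak, with a median coverage of 1.56%, where all genes weighted to their locus lengths stood at 43.2%. Zbtb43 (13.9%) had the highest coverage and Zbtb20, a regulator of hippocampal and cortical development, the most peaks with 18. The list includes Zbtb8os, a gene named only for its position. Of 15 Klf and Sp genes 6 (40.0%) carried a peak, against a weighted 47.1% of all genes, led by Klf9, a hormone-responsive factor of neurons, with 10 peaks over 15.7%. Of 9 Prdm genes 4 carried a peak, of 6 Zscan and Zkscan genes 2, of 2 Zfhx genes both and of 4 Zic and Gli genes none. All genes weighted to the locus lengths of these lists stood, in the same order, at 55.8, 40.3, 84.3 and 32.7%. The 6 lists together stood at 48.6% (37.2 to 60.05%), against a weighted 45.97% of all genes, and the interval overlaps that of the Znf and Zfp genes. With named genes only, the weighted share was also 48.6% for the 6 lists together. It was 46.0% for the Zbtb list and 49.6% for the Klf and Sp genes.

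Of 11 placed genes of the KRAB corepressor machinery, 8 (72.7%, interval 43.4 to 90.3%) carried a peak. Trim28, the corepressor that KRAB domains bind, had 1 peak over 3.08% of its locus, at 2.84-fold. Chd3, a remodeller of the NuRD complex, had 3 peaks over 4.21%, the strongest at 5.16-fold, and Mphosph8, a subunit of the HUSH complex, had 2 over 1.68%. Setdb1, the methyltransferase, had none, nor had Cbx5, which encodes HP1 alpha, or Dnmt1. Weighted to their locus lengths, all genes stood at 55.6% and named genes at 57.6%.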

How the data were processed

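Peaks of 1 H3K4me1 ChIP library over 1 input library were called by the authors at a q cutoff of 0.05 from paired-end alignments, with MACS 2.0.10.20131216 per the file headers. Header paths name a Stampy alignment, but BWA 0.7.12 stands in the submitters' processing notes beside SAMtools 0.1.19 and MACS2 2.0.10, so which aligner was used is unclear. The deposited signal is the pileup of ChIP fragments at the summit. The deposited fold is a ratio of pileup to the caller's background from the input, with a pseudocount of 1. The deposited −log10 q comes from the caller's Poisson test. The deposited start, end and width use positions counted from 1; these and all scores per peak are the authors' own.

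The peaks' build and its version are not given in the sources used here. Gene positions came from RefSeq MicOch1.0. Peaks 1 to 2.5 kb from a gene end numbered 2469, against 1285 to 1335 after shifts of 20 to 200 kb. Chromosome 14 and chromosome 6 below 20 Mb were left out because the table merges sequences there. No gene coordinate and no sequence is given.

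Counts, coverage, nearest gaps and standardised shares were computed in Python 3.11.15 with pandas 2.3.3 and numpy 2.4.6, and checked on simulated data. Standardising used 10 classes of locus length, or tertiles where the members were set against other zinc finger families. No p-value was computed. Members named are the 10 of highest coverage, those with most peaks (13, for ties), the 5 with the highest fold, the neighbour groups and a role list; others are said to be chosen after their values were seen, or stand beside a named one. Members and lists were chosen with earlier results of these data known. A planned count of protein fingers was not run, because no protein sequence was used. In all, 98 alternatives were run.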

Additional observations from a re-analysis of the deposited data

Results flagged for a closer look

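Outside the comparisons, 7851 peaks (21.7% of the list) lay on unplaced sequences, each above the input by the caller's test. They were not assigned to genes here, and 58 Znf and Zfp genes lie on such sequences.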

How the results depend on the processing

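Of 98 alternatives run, 47 were chosen after the data were examined. The share of member loci with a peak, 60.2%, became 50.4% with gene bodies alone, 69.9% with 20 kb flanks, 43.6% with the stronger 50% of peaks by q and 28.6% with the 25% of highest fold. The members' excess over all genes of like length was between 5.95 and 12.5 points in the 7 alternatives set against all genes, with an interval that took in 0 for the peaks of highest fold (-1.04 to 14.1). It was 9.49 points against named genes. Against 63 genes of other zinc finger families, without the Sp genes and weighted over tertiles of the members' locus length, it was 7.68 points (-0.808 to 15.6). The intervals of this excess cover the counting error of the members alone, not that of the genes they were set against. The difference in share, neighboured minus single, was below 0 in all 23, but in 7 its interval took in 0. These were gene bodies alone (-19.6, -37.3 to 1.76), 20 kb flanks, peaks of highest fold, neighbours within 50 kb (-18.2, -39.7 to 5.501), the shortest and middle tertiles and the list without the group of Znf446. It moved most by length tertile, to -5.45 points in the shortest and -86.4 in the longest, which held 1 neighboured member. The difference in median coverage, -1.17 points, became -0.464 with gene bodies alone, -0.362 with 20 kb flanks, -0.619 in the middle tertile, and 0.0 in the shortest tertile and with either stricter peak list. The difference in density, 0.082 peaks per 10 kb, became 0.214 with gene bodies alone, 0.045 with peaks of highest fold, 0.050 in the middle tertile and 0.185 with neighbours within 50 kb. It became -0.058 with 20 kb flanks, -0.012 with peaks stronger by q, -0.023 with neighbours within 250 kb, -0.093 in the shortest tertile and -0.255 in the longest. The cause was not tested. Within 50 kb, 13.5% of members had a neighbour. The difference in mean coverage was above 0 in 10 of 22 alternatives. No paired analysis was possible because there was 1 library of each kind. Counting LOC genes as neighbours and counting fingers in the proteins were planned and not run. A locus without a peak is below the caller's limit at this depth, which sets no level for the mark there.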

Other observations

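By distance to the nearest other member, in classes chosen after the values were seen, 6 of 12 members within 10 kb carried a peak and 4 of 14 at 10 to 100 kb. At 100 to 500 kb it was 12 of 18, at 500 kb to 1 Mb 4 of 8, at 1 to 5 Mb 27 of 40, and 27 of 41 farther away or alone on their sequence. All genes weighted to the locus lengths of these classes stood, in the same order, at 35.4, 35.2, 45.3, 53.4, 48.9 and 55.3%. Mean coverage was 3.52% within 10 kb and 0.668% at 10 to 100 kb, and between 1.62% and 2.14% in the other classes. The 12 closest members include Znf48, Znf597, Znf672 and Znf668, and the peaks counted for Znf646 are those of Znf668.

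By chromosome, all 6 members on chromosome 18, all 5 on linkage group 5 and all 4 on chromosome 2 carried a peak, where 50.5%, 56.1% and 48.4% of all genes there did. Several of these loci were long, and all genes weighted to their locus lengths stood at 76.3%, 63.4% and 60.3%. On chromosome 10 it was 2 of 7 members against 42.3%, on linkage group 4 5 of 12 against 45.2%, and on chromosome 7, with the most members, 11 of 21 against 44.8%. The shares weighted to the members' lengths there were 41.9%, 37.7% and 39.96%. These sequences were picked after their values were seen.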
